A study of Mus musculus with 12 samples.

Results

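Day 1 after burn/tenotomy, a burn with surgical division of a tendon, was set against the pooled 2 other times sampled, 6 hours and 7 days, to look for transcripts with a transient high or low in enriched blood. The 4 libraries labelled Day1 were compared with the 8 libraries of the other times (4 labelled 6h and 4 labelled Day7), out of 12 libraries in all, with groups read from the sample titles. All 12 came from wild-type mice with burn/tenotomy, and no uninjured group was used here. The blood was sorted on the iChip, a microfluidic device, and the enriched fraction is labelled as cMPCs, a term in use for circulating mesenchymal progenitor cells, together with blood cells, so every library is a mixture of cell types. RNA was purified with a Qiagen micro kit, and total RNA libraries were made with the Seqwell Rapid kit. Whether replicates are separate animals is not stated in the labels. The p-values therefore cover only the spread among these samples, and that spread may be technical. In such bulk material, fewer cells of a type and less RNA per cell cannot be told apart.

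Burn/tenotomy in mice is a model of heterotopic ossification, the formation of bone in soft tissue, in which local mesenchymal progenitors pass through cartilage to bone under BMP and TGF-beta signalling. The first day after a burn is the time of the acute-phase response, in which the liver raises secreted plasma proteins and immediate early and heat shock genes respond to stress in many cells. Whole blood RNA is dominated by red cells and platelets, so transcripts of rarer cells are read against that background.

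The libraries held 5098395 to 12379041 reads, and the Day1 mean of 8389480 reads was close to the mean of 8279940 in the other 8 (exact permutation test, two-sided, p = 0.952). The count of genes with at least 1 read was 14563, 16647, 13285 and 12776 in Day1 replicates 1 to 4. It was 7631, 10581, 11708 and 11357 at 6h and 13353, 10708, 7635 and 11719 at Day7. The Day1 mean of 14318 ± 1725 (SD, n = 4) exceeded the 10586.5 ± 2009 (SD, n = 8) of the others by 3731 genes (exact permutation p = 0.0121, adjusted p = 0.0202 over 5 measures, smallest possible p 0.00202). With reads thinned to the smallest library the difference was 3809 (exact permutation p = 0.0101), and with reads outside haemoglobin thinned it was 3568 (exact permutation p = 0.0121). Haemoglobin genes took 16.1% to 64.1% of Day1 reads (mean 40.8%) against a mean of 54.1% in the others (exact permutation p = 0.285). Values below are the deposited values, which are reads divided by a library-wide scale, and 1 read is worth 0.0314 to 0.124 at Day1, 0.0599 to 0.379 at 6h and 0.0688 to 0.617 at Day7. Reads of the Y-linked genes occurred in Day1 replicates 2, 3 and 4 (603, 422 and 853) and in 6h replicates 3 and 4 (76 in each), with 0 in the other 7 libraries, so libraries with and without such reads are unevenly spread over the times. The 25 mesenchymal progenitor and fibroblast markers summed to 138 to 747 at Day1, 46.2 to 1075 at 6h and 420.1 to 1188 at Day7, and 0, 4 and 3 of them had no reads in these groups. Gelsolin (Gsn) alone gave 1014, 929, 361 and 442 of the sums in Day7 replicates 1 to 4. The median log2 difference over the tested markers was 1.05 for Day1 minus 6h and 1.28 for Day1 minus Day7.

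Of 37583 genes, 11211 reached a value of 1 in 4 or more libraries and were tested, and 0 passed as higher (0%) and 0 as lower (0%) at Day1 in limma with Benjamini-Hochberg adjustment at 0.05. The smallest adjusted p was 0.0697, shared by 63 genes, of which 56 were higher and 7 lower. At an unadjusted p under 0.05, 1872 genes were higher (16.7% of those tested) and 511 lower (4.56%). A stricter test asked that Day1 differ in 1 direction from 6h and from Day7 separately. It called 0 peaks (0%) and 0 dips (0%), with smallest adjusted p of 0.444 and 1, and at an unadjusted p under 0.05 it gave 1031 peaks (9.20%) and 177 dips (1.58%). On recovered reads, edgeR called 0 in either direction (1067 higher and 708 lower at an unadjusted p under 0.05) and DESeq2 called 340 higher and 220 lower. Calls in limma depended on single libraries, with 254 higher and 24 lower without 6h replicate 3 and 210 higher and 109 lower without Day7 replicate 1. With a term for Y-linked reads 0 were called, and 845 were higher and 438 lower at an unadjusted p under 0.05. Everything named below therefore lies short of the limma threshold, and its direction is given as a value with its error.

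The balance of directions depended on the scale. Deposited values summed to less in every Day1 library (351981 to 649762) than in any 6h or Day7 library (722573 to 5611145). The median log2 difference of all tested genes, Day1 minus the mean of both other times, was 0.48 (quartiles -0.29 and 1.18), and 66.9% of genes were above 0. Against 6h the median was 0.52 and against Day7 0.48, 2 comparisons that share the Day1 libraries. Scaled to reads outside haemoglobin the median was 1.42, with 3699 higher and 8 lower calls. Scaled to all reads it was 1.69, with 4496 higher and 3 lower calls and 91.8% of genes above 0. Among the 4383 genes with a mean of at least 10 the excess was gone, with a median of 0.0038, 50.1% above 0 and 486 higher against 417 lower at an unadjusted p under 0.05. List medians below are therefore read against the 0.48 of all genes on the same scale.

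**Figure D1:**
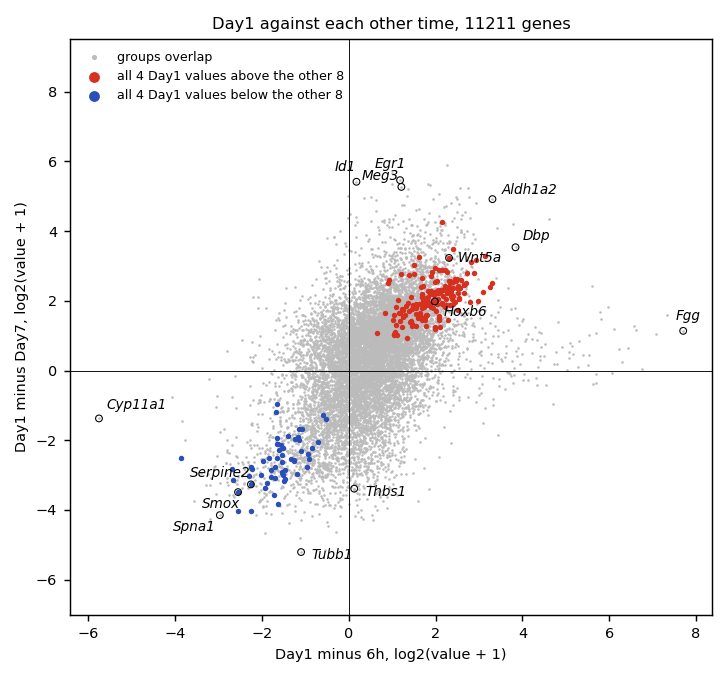
Difference of Day1 from 6h (x axis) and from Day7 (y axis), both on the log2(value + 1) scale, for the 11211 tested genes. Red points are the 168 genes with all 4 Day1 values above the other 8, blue points the 56 genes with all 4 below, grey points genes whose groups overlap. Both axes share the Day1 libraries, Fgg lies far to the right (7.70 from 6h against 1.14 from Day7), and Id1, Egr1 and Meg3 lie high through Day7.

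Separation of the samples gives the plainest view of a Day1 peak or dip. In 168 genes (1.50% of those tested) each Day1 value lay above each of the other 8, and in 56 genes (0.500%) each lay below. In the first set the median mean was 8.41 at Day1 and 1.12 in the others, beside 7.17 and 6.09 for all tested genes, and 71 of 168 reached a mean of 10 in the higher group, beside 5401 of all 11211. In the second the median mean was 44.9 at Day1 and 199 in the others, and 50 of 56 reached a mean of 10 in the higher group. Of the 168, 26 passed the filter on low values through the 4 Day1 libraries alone. Among genes with a mean of at least 10 over all libraries the balance turned, with 26 above and 49 below. The numbers depended on single libraries too, reaching 407 without Day1 replicate 1, 388 without 6h replicate 3, 294 without Day1 replicate 4, 280 without 6h replicate 4, 255 without 6h replicate 1 and 253 without Day1 replicate 2 for the first set, and 113, 99 and 96 without 6h replicate 1, 6h replicate 3 and Day1 replicate 1 for the second. Limma adjusted p-values ran from 0.0697 to 0.403 in the first set and from 0.0697 to 0.377 in the second.

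The higher set was led by Arl10, Oxnad1, Lair1, Il18 and Ppfibp2. Arl10, a small GTPase of the ADP-ribosylation factor-like family, had values of 8.16, 4.49, 17.9 and 10.3 in Day1 replicates 1 to 4, against 0, 2.27, 0 and 0 at 6h and 0.688, 0, 0 and 0 at Day7. Only 2 of its 8 other libraries held any reads, and the means were 10.2 ± 5.66 (SD, n = 4) and 0.37 ± 0.805 (SD, n = 8; log2 difference 3.04, SE 0.59, limma adjusted p = 0.0697). Il18, a cytokine released in its active form after inflammasome cleavage, was 3.83, 11, 17 and 16 at Day1, 0, 0, 1.21 and 1.62 at 6h and 1.31, 0.383, 0 and 1.33 at Day7 (log2 difference 2.85, SE 0.66, limma adjusted p = 0.0697). Lair1, an inhibitory receptor of leukocytes that binds collagen, was 44.2, 3.99, 6.9 and 4.13 at Day1, all 0 at 6h and 2.34, 0, 0 and 1.66 at Day7 (log2 difference 2.90, SE 0.66, limma adjusted p = 0.0697). Its Day1 mean rested on replicate 1, which was above the other 3 Day1 libraries together. Csf1, the growth factor of macrophages, also separated the groups, with 3.71, 8.67, 3.19 and 11.2 at Day1 and at most 2.17 elsewhere (log2 difference 2.12, SE 0.62, limma adjusted p = 0.0936).

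Slit3 and Wnt5a, both secreted ligands, were in this set too. Slit3, a ligand of Robo receptors, was 12.5, 22.3, 10.8 and 47.8 in Day1 replicates 1 to 4, 0, 7.2, 8.45 and 5.22 at 6h and 0, 0, 0 and 0.333 at Day7. Its 6h and Day7 libraries differed from each other as well, with log2 differences of 2.14 from 6h and 4.26 from Day7 (pooled log2 difference 3.20, SE 0.75, limma adjusted p = 0.0697). Wnt5a, a ligand of mostly beta-catenin-independent Wnt signalling, was 9.27, 15.9, 8.42 and 20.6 at Day1, 0, 1.14, 2.66 and 6.47 at 6h and 1.86, 0.191, 0 and 0.333 at Day7. All 4 Day1 values of Wnt5a were above the highest 6h value, and the mean was 8.57-fold that of the others (log2 difference 2.77, SE 0.71, limma adjusted p = 0.0735). Galnt6, an enzyme that starts O-linked glycosylation, was 6.43, 25.2, 23.2 and 45.3 at Day1 against at most 6.40 elsewhere (log2 difference 3.21, SE 0.78, limma adjusted p = 0.0697). Atp1b1, the beta subunit of the sodium-potassium pump, was 24.1, 66.9, 46.9 and 87.5 at Day1, 6.35, 4.17, 23.9 and 2.04 at 6h and 11.6, 7.27, 0 and 11.3 at Day7, and its lowest Day1 value only just exceeded 6h replicate 3 (log2 difference 2.97, SE 0.78, limma adjusted p = 0.0834). Oxnad1, Ppfibp2 (liprin beta 2) and Osbpl5 (an oxysterol-binding protein relative) completed the 10 leading genes, with log2 differences of 2.94, 2.82 and 2.54.

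The choice of these genes fixes their direction in any subset of the libraries, so only the sizes are given by Y-linked reads, as a description. Within the 5 libraries with such reads (3 at Day1, 2 at 6h) the log2 differences were 3.40 for Arl10, 2.68 for Il18, 1.63 for Slit3, 1.53 for Wnt5a and 2.92 for Galnt6. Among the 7 libraries without such reads, of which 1 is from Day1, they were 2.78, 1.79, 3.18, 2.81 and 1.94 in the same order.

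Leading the lower set were Serpine2, Smox and Cd59a among genes not listed under a clone name. Smox, spermine oxidase of polyamine breakdown, was 160.3, 71.5, 169 and 29.5 in Day1 replicates 1 to 4, 333, 1132, 527 and 356 at 6h and 328, 728, 2878 and 1388 at Day7. Every other library was above the highest Day1 value, and the mean of the others was 8.91-fold that of Day1 (log2 difference -3.02, SE 0.75, limma adjusted p = 0.0735). Serpine2, protease nexin-1, an inhibitor of thrombin and other serine proteases, was 4.82, 21.4, 11.2 and 17.2 at Day1, 85.5, 92, 24.4 and 72.7 at 6h and 81.4, 189, 135 and 116 at Day7 (log2 difference -2.76, SE 0.65, limma adjusted p = 0.0697). Its closest library was 6h replicate 3, only slightly above the highest Day1 value. Cd59a, which blocks the membrane attack complex of complement on red cells, was 23.1, 22.4, 15.4 and 14.1 at Day1, 36.4, 133, 38.6 and 81.6 at 6h and 110.4, 214, 567 and 199 at Day7 (log2 difference -2.64, SE 0.65, limma adjusted p = 0.0735).

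Arpc5, Chac2 and Ccng2 lay below too. Arpc5, a subunit of the actin-nucleating Arp2/3 complex, was 35.2, 46.1, 34 and 51.9 at Day1, 122, 121, 70.2 and 199.6 at 6h and 341, 274, 459.5 and 284 at Day7, a narrow range at Day1 (log2 difference -2.25, SE 0.61, limma adjusted p = 0.087). Chac2, which degrades glutathione, was 13.6, 6.25, 4.47 and 10.9 at Day1 against a lowest value of 13.7 elsewhere, in 6h replicate 4 (log2 difference -2.72, SE 0.70, limma adjusted p = 0.0735). Ccng2, the unconventional cyclin G2, was 8.4, 3.71, 7.51 and 0.195 at Day1, 23.7, 34.1, 11.1 and 21.2 at 6h and 27, 31.6, 54.9 and 18.6 at Day7 (log2 difference -2.52, SE 0.70, limma adjusted p = 0.087). The genes listed under the clone names 4833439L19Rik, 1110020G09Rik and 1190002H23Rik and the gene Fgfr1op2 filled the 10, with log2 differences of -3.14, -3.28, -3.20 and -2.65.

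Among the remaining lower genes, singled out after their values were seen, were the iron storage subunits Fth1 (-2.56) and Ftl1 (-2.65), the ubiquitin gene Ubb (-2.51), the autophagy proteins Map1lc3b (-2.42) and Gabarap (-1.52), the survival factor Bcl2l1 (-2.33) and the membrane skeleton gene Spnb1, beta spectrin (-2.23). Ftl1 and the near-identical Ftl2 may share reads, so both are uncertain. Spnb1 was 24.2, 13.1, 15.9 and 19.5 at Day1, 115, 49.2, 30.4 and 45.4 at 6h and 47, 101, 397 and 217 at Day7, the single erythroid list member without overlap. Red cell transcripts were lower at Day1 too (erythroid list median -2.18), but with overlap. On the log2 scale the erythroid list mean was 7.55 in Day1 replicate 1. It was lower in 6h replicates 1 and 4 (6.74 and 6.46) and in Day7 replicate 1 (5.85). The remaining 6h and Day7 libraries were above it. The summed level of the 26 erythroid genes, haemoglobin included, ran from 58398 to 431814 at Day1, 205418 to 1379560 at 6h and 131452 to 3919960 at Day7, with none of them at 0 reads in any group, and its part in the lower values was not tested. Scaled to reads outside haemoglobin, 2 genes lay below all others in place of 56, and scaled to all reads 4.

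**Figure D2:**
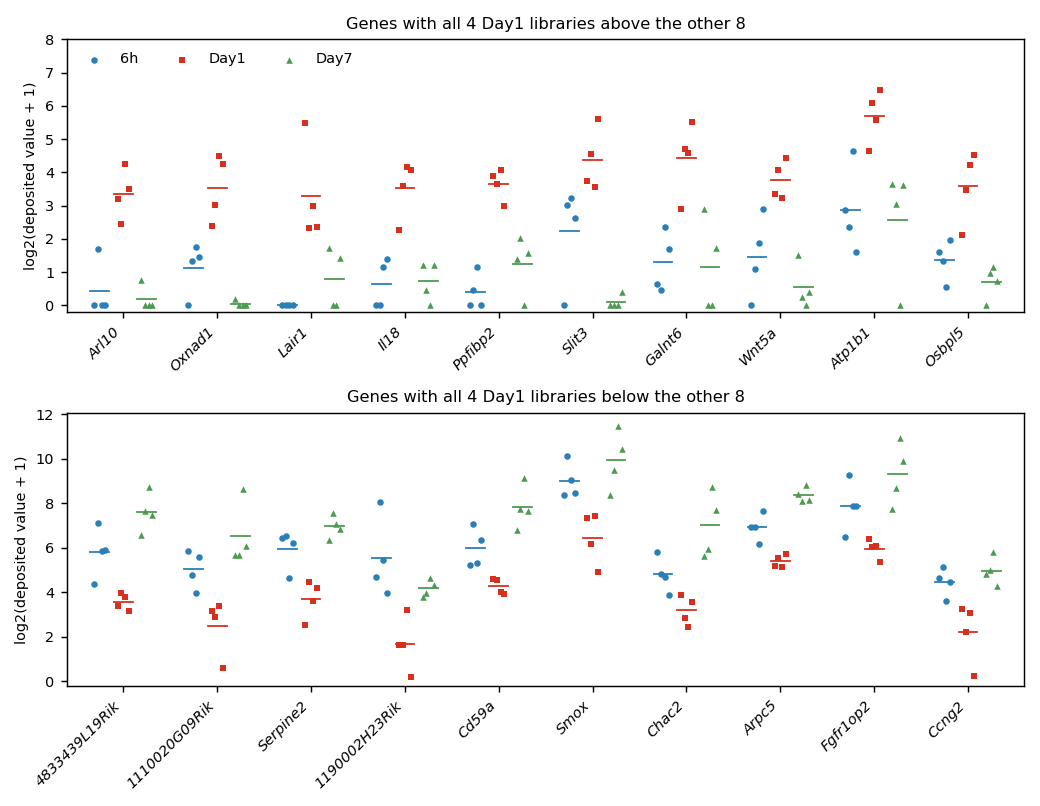
The 10 leading higher (upper panel) and 10 leading lower genes (lower panel), each library as a point on the log2(deposited value + 1) scale, with bars for the mean of 4 libraries in each group on that scale. Circles are 6h, squares Day1 and triangles Day7, and by the rule for choosing these genes no Day1 point overlaps the other 8.

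Turning to groups of genes, 44 lists were set up, of which 40 had at least 5 tested members. Medians ran from 3.18 (mesothelial markers) to -2.18 (erythroid genes) against 0.48 for all genes. A member counted below as nominally higher or lower had an unadjusted p under 0.05, which 16.7% and 4.56% of all tested genes had. Because 0 genes passed adjustment, 0 members of any list did.

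**Figure D3:**
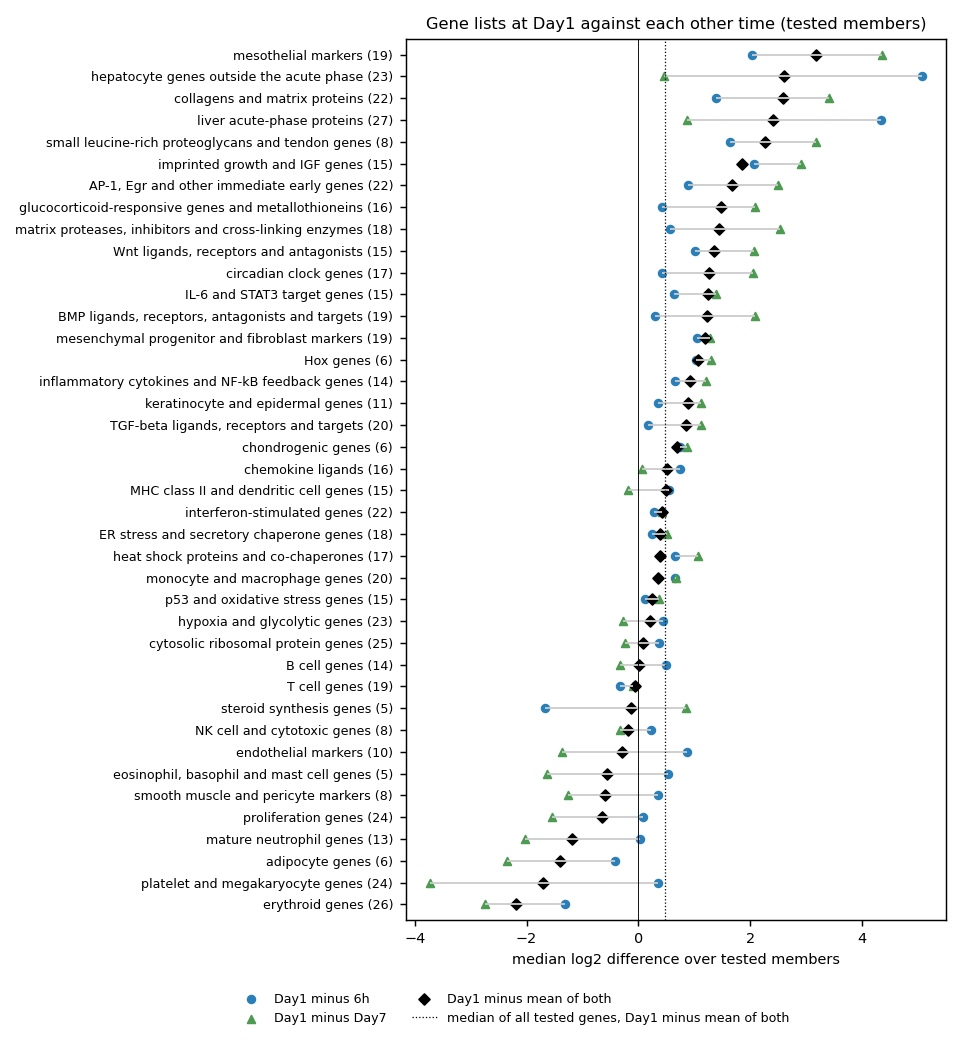
Median log2 difference over the tested members of each gene list (number in brackets), for the 40 lists with at least 5. Circles compare Day1 with 6h, triangles Day1 with Day7 and diamonds Day1 with the mean of both, and the dotted line is the median of all tested genes, 0.48. Mesothelial markers lie right of both lines against both times, hepatocyte genes reach 5.07 against 6h but 0.45 against Day7, and platelet genes lie at -3.72 against Day7, 0.35 against 6h and -1.70 against the mean of both.

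Circadian clock genes were higher at Day1 in part. Dbp, Tef and Hlf, the 3 PAR-domain leucine zipper factors driven by the clock, and Per1 and Nr1d1, repressors of its core and secondary feedback loops, were higher at Day1. Cry1, Bhlhe41 and Nfil3 had differences of -0.64, -0.23 and -0.08. In all 8 of 17 tested members were nominally higher and 0 lower, with a list median of 1.26 (0.42 against 6h and 2.04 against Day7). All tested genes had medians of 0.52 against 6h and 0.48 against Day7, so the list as a whole exceeded them only against Day7. Dbp was 18.5, 109.7, 84.6 and 84.5 in Day1 replicates 1 to 4, 0, 0, 19.3 and 17.5 at 6h and 8.39, 10.1, 0 and 7.32 at Day7. Only Day1 replicate 1 fell inside the range of the others, just under 6h replicate 3 (log2 difference 3.69, SE 0.92, limma adjusted p = 0.0735). Per1 was 19, 42.8, 66.1 and 73.6 at Day1, 29.1, 0.757, 21 and 13.2 at 6h and 6.05, 0.766, 0 and 8.65 at Day7, so Day1 replicate 1 lay below 6h replicates 1 and 3 and the other 3 above all (log2 difference 2.90, SE 0.82, limma adjusted p = 0.0906). Tef was 21.8, 41.6, 45.4 and 57.6 at Day1, 1.31, 4.17, 20.0 and 21.8 at 6h and 13.6, 0.766, 0 and 5.99 at Day7, with 1 Day1 value level with the highest 6h value (log2 difference 2.84, SE 0.81, limma adjusted p = 0.0917). Nr1d1, the nuclear receptor REV-ERB alpha, was 7.79, 46, 51.7 and 93.6 at Day1, 4.11, 37.5, 24.1 and 0.899 at 6h and 1.65, 1.72, 2.47 and 2.33 at Day7 (log2 difference 2.80, SE 0.82, limma adjusted p = 0.0936). The 4 Day7 values of Nr1d1 were uniformly low, while 6h replicates 2 and 3 lay above the lowest Day1 value.

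Further members gave smaller differences. Clock, the activator of the loop, differed by 1.64, limma adjusted p = 0.13, and Per3 and Hlf by 2.12 and 2.41. Gm129, the repressor now named Ciart, was 2.6, 2.64, 7.36 and 1.48 at Day1, 0, 3.03, 3.14 and 0 at 6h and 0, 2.11, 0 and 0.333 at Day7 (log2 difference 1.26, SE 0.61, limma adjusted p = 0.235). Cry1 was 0.247, 0.973, 0.228 and 4.63 at Day1, 0, 3.41, 1.21 and 2.58 at 6h and 2.89, 3.64, 0 and 15.3 at Day7, without a common direction (log2 difference -0.64, SE 0.73, limma adjusted p = 0.628). Per2, Cry2 and Rora differed by 0.37, 0.56 and 0.32. Within the libraries with Y-linked reads, Dbp and Per1 differed by 2.27 and 1.77 between Day1 and 6h, and in those without by 2.66 and 2.22. A term for Y-linked reads left 5 nominally higher members and a median of 1.16. The labels give no hour of sampling, so the clock phase of each group is not known here.

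**Figure D4:**
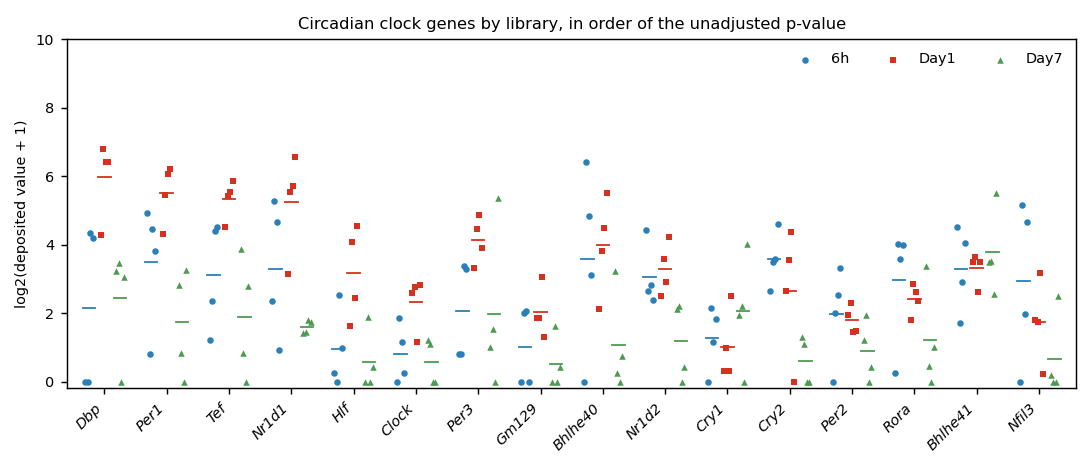
Deposited values of 16 of the 17 tested clock genes on the log2(value + 1) scale, in order of the unadjusted limma p, each library as a point and each bar the mean of 4 libraries. Squares (Day1) lie highest for Dbp, Per1, Tef and Nr1d1 on the left and mix with circles (6h) and triangles (Day7) from Cry1 to Nfil3 on the right.

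The E-box CACGTG is the element through which the CLOCK and BMAL1 proteins drive these genes, and the promoters of a higher, a weakly higher and a not higher member show how it is placed. RefSeq promoter windows (GRCm38.p6, 250 bases before to 50 after a start) were found for 16 of the 19 clock genes, and 5 of the 16 hold an E-box, Per1, Tef, Gm129, Cry1 and Bhlhe41, against 7.15% of all 32851 windows and 8.09% of the 27025 genes with a window. Of these 5, Per1, Tef and Gm129 were nominally higher at Day1 and Cry1 and Bhlhe41 were not, beside 8 nominally higher of all 17 tested members. For the other nominally higher members, Dbp among them, no E-box was found in a window. Whether the E-box goes with the difference at Day1 was not tested. The D-box TTATGTAA, searched on both strands like the E-box, was in 1 of 16 (Per3; 0.938% of all windows, 1.11% of genes). The 250 bases before the start of each are given 5′ to 3′ with the E-boxes in capitals, at chr11:69098699-69098948 on the plus strand for Per1, chr3:95882229-95882478 on the minus strand for Gm129 and chr10:85185055-85185304 on the minus strand for Cry1.
Per1: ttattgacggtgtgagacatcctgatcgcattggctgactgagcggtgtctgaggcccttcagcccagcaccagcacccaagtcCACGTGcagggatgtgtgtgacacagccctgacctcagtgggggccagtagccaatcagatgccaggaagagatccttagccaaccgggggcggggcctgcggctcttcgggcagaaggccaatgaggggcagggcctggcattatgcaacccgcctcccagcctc
Gm129: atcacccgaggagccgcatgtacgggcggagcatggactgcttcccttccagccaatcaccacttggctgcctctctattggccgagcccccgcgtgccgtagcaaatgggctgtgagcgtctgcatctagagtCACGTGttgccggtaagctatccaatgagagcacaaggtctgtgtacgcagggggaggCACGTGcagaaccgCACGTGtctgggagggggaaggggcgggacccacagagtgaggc
Cry1: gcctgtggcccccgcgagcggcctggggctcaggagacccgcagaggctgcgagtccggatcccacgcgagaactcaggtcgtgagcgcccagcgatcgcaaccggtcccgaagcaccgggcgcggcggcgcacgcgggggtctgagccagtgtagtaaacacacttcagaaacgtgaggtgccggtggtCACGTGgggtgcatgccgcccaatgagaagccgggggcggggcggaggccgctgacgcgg
The first base of the Per1 E-box lies 166 bases before the start and that of Cry1 60 bases before it. Gm129 has 3, at 116, 58 and 44 bases before the start. A match in these letters is a description of the window and does not show binding.

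Immediate early genes, mostly transcription factors induced within minutes of a stimulus, were nominally higher in 14 of 22 members and lower in 0, with a median of 1.67. The median was 2.49 against Day7 and 0.88 against 6h. Egr1, a zinc finger factor, was 88.9, 136, 400.1 and 111 in Day1 replicates 1 to 4, 5.23, 141, 189 and 124 at 6h and 9.56, 1.34, 0.617 and 2.66 at Day7 (log2 difference 3.32, SE 0.83, limma adjusted p = 0.0735). Day1 and 6h overlapped apart from 6h replicate 1, and all 4 Day7 libraries were low. Klf4 was 28.7, 81.2, 73.7 and 20.4 at Day1, 5.6, 3.41, 74.8 and 50.0 at 6h and 1.31, 0.383, 0 and 1.33 at Day7 (log2 difference 3.01, SE 0.80, limma adjusted p = 0.0834). Fosb, an AP-1 subunit, was high in 3 of 4 Day1 libraries (48.8, 48, 62.6 and 0.662) against at most 21 elsewhere (log2 difference 2.62, SE 0.93, limma adjusted p = 0.125). Btg2, an antiproliferative early gene, was the member without overlap, with 152, 183, 315 and 164 at Day1 against at most 136 in 6h replicate 2 (log2 difference 1.71, SE 0.67, limma adjusted p = 0.152). Fos, Atf3 and Ier3 differed by 3.17, 2.76 and 3.33, and Jun and Junb by 1.78 and 1.66, with Jun at -0.10 against 6h.

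Heat shock genes were nominally higher in 6 of 17 members, and these were stress-inducible chaperones. Hspa1a and Hspa1b, the inducible HSP70 genes, were 44.5, 69, 186 and 18.4 and 99.4, 127, 326 and 30.1 in Day1 replicates 1 to 4. At 6h they were 5.41, 5.3, 35.7 and 47.9 and 0.747, 10.6, 42.7 and 66.2, and at Day7 at most 1.33 and 5.32. They are near-identical copies, so how reads were split between them is uncertain (log2 difference 3.59, SE 0.77, limma adjusted p = 0.0697 for Hspa1a). Hspb1, a small heat shock protein, was 71.9, 179.6, 269 and 116 at Day1, 58.8, 13.3, 107 and 111 at 6h and 3.92, 1.72, 0.617 and 16.6 at Day7 (log2 difference 3.17, SE 0.75, limma adjusted p = 0.0697). Cryab and Hspb8, also small heat shock proteins, and the HSP40 co-chaperone Dnajb1 differed by 3.28, 2.49 and 2.19. The list median was 0.38 (0.65 against 6h and 1.06 against Day7), beside 0.48 (0.52 and 0.48) for all genes. The other 11 members had no nominal difference (Hspe1 0.99, Bag3 1.04, Dnajb4 -0.53, Hspa4l -1.50). The heat shock element (alternating GAA and TTC units, 3 in all and 2 bases apart, on either strand) was found in 4 of 13 members with a promoter window (Hsph1, Hspd1, Hspe1 and Chordc1), against 0.603% of all windows and 0.662% of genes. Hspd1 and Hspe1 share 1 divergent promoter with the same elements, and none of the 4 was among the 6. The search covered an exact form and only members with a window, so it does not show that the 6 lack the element.

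Mesothelial markers, genes of the cells that line body cavities, had the highest list median, 3.18 (2.03 against 6h and 4.35 against Day7). In it 18 of 19 members were nominally higher, 0 lower, and 0 were at 0 reads in any group. Aldh1a2, which makes retinoic acid, was 17.2, 105, 56 and 116 in Day1 replicates 1 to 4, 0.747, 0, 54.6 and 12.7 at 6h and 1.44, 0.574, 0 and 2.99 at Day7 (log2 difference 4.11, SE 0.91, limma adjusted p = 0.0697). Wt1, the Wilms tumour factor, was 17.2, 47.4, 49.2 and 35.8 at Day1, 1.31, 0, 32.3 and 29.6 at 6h and 0.0688, 0.191, 0 and 0.998 at Day7 (log2 difference 3.59, SE 0.87, limma adjusted p = 0.0697). In both genes 6h replicates 3 and 4 lay in or near the Day1 range and 6h replicates 1 and 2 at the Day7 level. Msln (mesothelin), Gpm6a and Krt7 differed by 3.59, 3.71 and 3.44. The summed level of the list ran from 1305 to 7390.3 at Day1, 109.8 to 4772 at 6h and 459 to 1082 at Day7. The high 6h libraries were those with Y-linked reads, and within the 5 such libraries Aldh1a2 differed by 1.69, without them by 3.39. A term for Y-linked reads lowered the list median to 1.58 and left 6 nominally higher members. Without both 6h libraries with Y-linked reads, an alternative chosen after seeing the data, the median was 3.93. Limma then called 14 of 19 members higher, beside 498 of 10650 tested genes. Those libraries had the high 6h levels of this list, so leaving them out raises the difference by construction.

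Matrix genes ran with the same libraries. Collagens and matrix proteins were nominally higher in 14 of 22 members and lower in 0 (median 2.59, or 1.35 with 2 nominally higher under a term for Y-linked reads). Lamb2, a laminin chain of basement membranes, was 15.4, 39.4, 24.8 and 69.6 at Day1, 24.1, 7.2, 25.8 and 36.9 at 6h and 0.138, 0, 0 and 0.333 at Day7 (log2 difference 2.77, SE 0.69, limma adjusted p = 0.0735). Day1 and 6h overlapped almost fully and the Day7 values were near 0, so the pooled difference rested on Day7 (0.63 against 6h, 4.90 against Day7). Col1a1 and Col1a2, the chains of type I collagen, differed by 3.36 and 3.72, and Sparc, osteonectin, was 105, 1214, 312 and 678 at Day1, 8.21, 602, 525 and 219.6 at 6h and 35.2, 7.85, 0.617 and 27.9 at Day7 (log2 difference 3.28, SE 1.00, limma adjusted p = 0.0936). Thbs1, thrombospondin 1, which platelets also carry, was an exception at 117, 214, 280.4 and 81.5 at Day1, 424, 67, 15 and 904 at 6h and 1270.0, 1594, 1486 and 2356 at Day7 (log2 difference -1.63, SE 0.86, limma adjusted p = 0.272; 0.13 scaled to all reads). Small leucine-rich proteoglycans and tendon genes had 5 of 8 tested members nominally higher, with Tnxb, tenascin X, at 6.67, 40.0, 52.3 and 36.2, 6h at 0, 0, 15.7 and 13.5 and Day7 at 1.72, 1.34, 0 and 2.99 (log2 difference 3.24, SE 0.87, limma adjusted p = 0.087). Matrix proteases and their inhibitors had 8 of 18, led by Adamts2, the procollagen N-proteinase (3.16, limma adjusted p = 0.087).

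**Figure D5:**
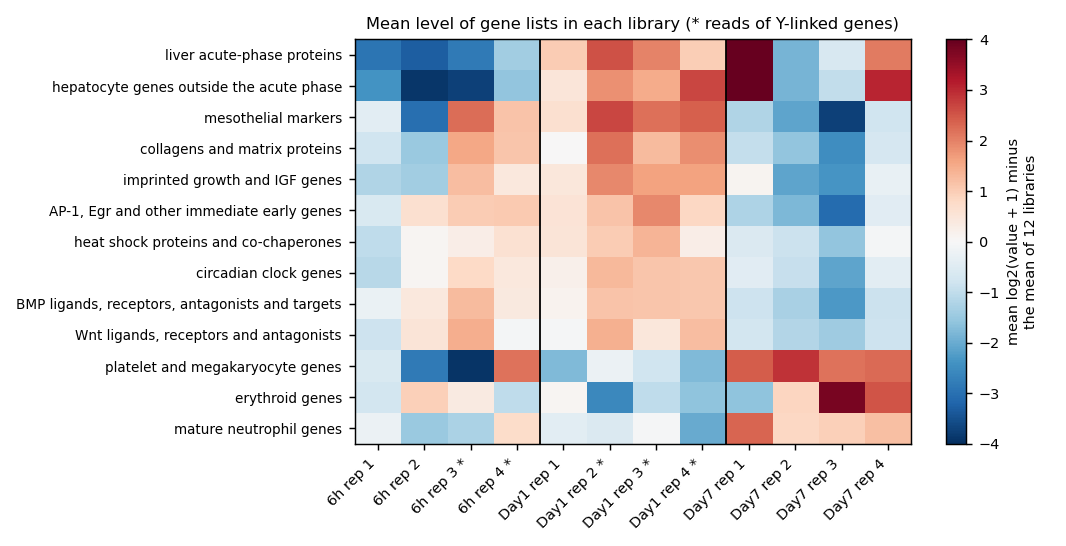
Mean log2(value + 1) of 13 gene lists in each library, minus the mean over 12 libraries, with colours saturating at 4 in either direction and an asterisk for libraries with Y-linked reads. Mesothelial and matrix levels are high (red) in Day1 replicates 2 to 4 and in 6h replicates 3 and 4, liver levels are low (blue) in all 6h libraries and highest in Day7 replicate 1, and platelet levels are high in all Day7 libraries and in 6h replicate 4.

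Imprinted growth genes and the insulin-like growth factor (IGF) binding proteins were all above 0, 15 of 15, with 10 nominally higher (median 1.84). Meg3, a maternally expressed long non-coding RNA, was 76.6, 79.6, 90.3 and 42.2 in Day1 replicates 1 to 4, 45.4, 16.3, 40.8 and 24.6 at 6h and 1.44, 0.957, 0 and 1.33 at Day7. The 3 times formed steps, and Day1 overlapped 6h only through replicate 4 (log2 difference 3.24, SE 0.64, limma adjusted p = 0.0697). Mirg, a non-coding RNA of the same imprinted cluster, was 1.98, 2.76, 2.96 and 3.39 at Day1 and at most 0.966 elsewhere, and it too passed the filter through Day1 alone. Igf2r, the receptor that clears IGF2, was 3.58, 15.4, 18.9 and 7.12 at Day1, 0.187, 0, 6.04 and 2.7 at 6h and at most 0.998 at Day7 (log2 difference 2.54, SE 0.71, limma adjusted p = 0.087). Igfbp5, Igfbp6 and Igfbp4 differed by 3.89, 3.26 and 3.03, with the 6h replicates 3 and 4 again in the Day1 range. A term for Y-linked reads left 3 nominally higher members and a median of 1.26.

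Hox genes, which record position along the body axis, had low values that were higher at Day1. Of 22 Hox genes 6 were tested, and Hoxb6 and Hoxb2 passed the filter on low values through the 4 Day1 libraries alone, so their separation was fixed by the filter and is a description. Hoxb6 was 4.45, 3.93, 3.41 and 1.05 in Day1 replicates 1 to 4 and had 0 reads in all 8 other libraries, against 233 at Day1. Over pooled reads, with a floor of 3 reads over the 8 libraries, that is at least 52.4-fold higher. Hoxb2 was 1.24, 1.92, 1.52 and 1.52 at Day1 and at most 0.483 elsewhere. Hoxa5 was 5.31, 18.7, 9.63 and 23.5 at Day1, 0, 0, 7.48 and 3.78 at 6h and 0, 0.766, 0 and 1.33 at Day7, with 6h replicate 3 above Day1 replicate 1 (log2 difference 2.82, SE 0.75, limma adjusted p = 0.0834). Of the 22 genes, 2 had 0 reads at Day1, 10 at 6h and 14 at Day7. The number of genes detected was also higher at Day1, and its part in these low values was not tested. The 1 further gene with 0 reads in the other 8 libraries, Stard13, had 122 reads at Day1 (at least 27.5-fold higher by the same floor) and was likewise tested only because Day1 reached the filter.

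Wnt, BMP and TGF-beta genes, which steer skeletal progenitors, had positive list medians of 1.35, 1.23 and 0.85. Beside Wnt5a, Wnt11 was 4.7, 14.6, 6.6 and 16.7 at Day1, 0, 2.65, 18.3 and 0.959 at 6h and 0, 0, 0 and 0.333 at Day7 (log2 difference 2.45, SE 0.75, limma adjusted p = 0.0936), and 8 of 15 Wnt genes were nominally higher with 0 lower. In the BMP list 9 of 19 were nominally higher and 0 lower (median 0.29 against 6h and 2.09 against Day7). Its target Id1, an inhibitor of basic helix-loop-helix factors, was 71.4, 153, 189.6 and 122 at Day1, 107, 135, 204 and 52.2 at 6h and 7.57, 0.383, 0 and 5.65 at Day7. Day1 and 6h overlapped, so the pooled difference (log2 difference 2.80, SE 0.71, limma adjusted p = 0.0735) rested on Day7 (0.18 against 6h and 5.42 against Day7). Id3 had the same pattern (-0.02 and 5.02).

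Among receptors and ligands, differences were above 0 against both times for Bmpr1a and Bmp4. Bmpr1a, a type I BMP receptor, was 2.1, 6.97, 12 and 19.7 at Day1, 0, 3.79, 2.66 and 2.04 at 6h and 1.17, 0, 0 and 0.665 at Day7 (log2 difference 2.23, SE 0.70, limma adjusted p = 0.0981), and Bmp4 differed by 1.95 from 6h and 2.31 from Day7. Acvr1, the type I receptor mutated in an inherited form of heterotopic ossification, was low throughout at 1.24, 4.4, 0.0758 and 4.71 at Day1, 0, 0, 3.38 and 0 at 6h and 0.344, 0, 0 and 0 at Day7 (log2 difference 1.23, SE 0.53, limma adjusted p = 0.184). Tgfbr2, the type II TGF-beta receptor, was 8.53, 36.2, 25 and 59.8 at Day1, 0, 0, 30.2 and 13.2 at 6h and 4.68, 0.191, 0 and 0.333 at Day7 (log2 difference 3.28, SE 0.92, limma adjusted p = 0.087). The 6h libraries of Tgfbr2 fell apart by Y-linked reads, and its Day1 minus 6h difference within libraries with such reads was 0.88. In the TGF-beta list 7 of 20 were nominally higher (median 0.17 against 6h and 1.13 against Day7). In it 1 member, Ltbp1, which stores latent TGF-beta and is present in platelets, was lower (log2 difference -1.96, SE 0.73, limma adjusted p = 0.138). Under a term for Y-linked reads 3 BMP, 3 Wnt and 0 TGF-beta members were nominally higher.

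Markers of mesenchymal progenitors were mixed, with 8 of 19 nominally higher and 1, gelsolin (Gsn), lower. Tcf21, a factor of fibroblast progenitors, was 1.98, 3.61, 5.61 and 1.71 at Day1, 0, 0, 2.66 and 0 at 6h and 0.825, 0, 0.617 and 0 at Day7 (log2 difference 1.56, SE 0.52, limma adjusted p = 0.11). Cd34 was 19.3, 146, 96.8 and 134 at Day1, 5.23, 0, 120.5 and 91.9 at 6h and 24.4, 27.8, 4.93 and 40.9 at Day7, with 6h replicates 3 and 4 within the Day1 range (log2 difference 2.11, SE 1.00, limma adjusted p = 0.225). Gsn was 37.7, 181, 113 and 122 at Day1, 130.1, 33.3, 128 and 809 at 6h and 1014, 929, 361 and 442 at Day7 (log2 difference -1.60, SE 0.77, limma adjusted p = 0.233; 0.15 scaled to all reads). Of 15 chondrogenic genes 6 were tested and 1, Sox9, the transcription factor of early cartilage, was nominally higher, at 3.21, 2.83, 7.81 and 16.2 at Day1 against 0, 1.89, 5.07 and 0 at 6h and all 0 at Day7 (log2 difference 2.30, SE 0.63, limma adjusted p = 0.087). Prg4 (lubricin) and Sox6 differed by 0.93 and -0.19, and Sox6 was 1.08 on the scale of reads outside haemoglobin and 1.44 on that of all reads. Of 18 osteogenic genes 4 were tested. Runx2, the factor of osteoblasts, was 63.9, 3.67, 14.8 and 28.2 at Day1, 11.4, 15.5, 1.93 and 0.18 at 6h and 3.1, 0.957, 0 and 3.66 at Day7, with Day1 replicate 2 among the other libraries (log2 difference 2.44, SE 0.85, limma adjusted p = 0.121). Spp1, osteopontin, was 6.55, 4.33, 0 and 679 at Day1, 0, 2468, 149 and 33.2 at 6h and 1.24, 21.2, 0.617 and 0 at Day7 (log2 difference -0.06, SE 1.51, limma adjusted p = 0.986), and its sign changed with the scale and with single libraries.

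Liver transcripts were higher at Day1 than at 6h and overlapped Day7. Acute-phase genes were nominally higher in 17 of 27 tested members and above 0 in all 27 (median 2.41). Against 6h the median was 4.34 and against Day7 0.87. Fgg, the gamma chain of fibrinogen, was 178, 295, 197 and 276 in Day1 replicates 1 to 4, 0, 0, 0 and 0.539 at 6h and 1896, 9.19, 22.2 and 274 at Day7 (log2 difference 4.42, SE 0.95, limma adjusted p = 0.0697). The Day1 values were tight while Day7 replicate 1 was far above them and Day7 replicates 2 and 3 far below, so the mean of the 8 others exceeded that of Day1 (275 ± 662, SD, n = 8, and 236 ± 57.6, SD, n = 4) although the mean log2 value did not. Hp, haptoglobin, was 608, 1537, 941 and 483 at Day1, 2.8, 18.9, 6.04 and 84.2 at 6h and 2989.8, 15.7, 123 and 629.9 at Day7 (log2 difference 3.74, SE 1.01, limma adjusted p = 0.087).

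Hepatocyte genes that were not on the acute-phase list had the same shape, with 14 of 23 nominally higher (median 2.61, 5.07 against 6h and 0.45 against Day7). F2, prothrombin, was 59.4, 66.2, 68.3 and 329.96 at Day1, all 0 at 6h and 842, 5.74, 3.08 and 164 at Day7 (log2 difference 3.88, SE 1.02, limma adjusted p = 0.0834), and Alb, albumin, was 369, 414, 454 and 1755 at Day1, 38.6, 0.757, 0 and 31.8 at 6h and 5281, 16.5, 152 and 1402 at Day7 (log2 difference 3.54, SE 1.16, limma adjusted p = 0.107). The summed level of this list was 2177 to 8229 at Day1, 10.6 to 369 at 6h and 214 to 36133 at Day7, with 3 of 24 genes at 0 reads at 6h and 0 at the other times. Its part in the acute-phase values was not tested. Without Day7 replicate 1 limma called 11 of 26 acute-phase and 10 of 22 hepatocyte genes higher, beside 210 of 10853 tested genes. That library had the highest mean level of both lists, so leaving it out raises their differences by construction. IL-6 and STAT3 targets, which the acute phase engages, were nominally higher in 5 of 15, led by the receptor subunit Il6st (1.95, limma adjusted p = 0.146).

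Platelet transcripts were lower at Day1 than at Day7, while their median difference from 6h was slightly above 0. Of 24 platelet and megakaryocyte genes 9 were nominally lower and 24 had a negative difference (median -1.70, 0.35 against 6h and -3.72 against Day7). Tubb1, the beta-tubulin of the platelet rim, was 11.1, 7.66, 8.8 and 10.7 in Day1 replicates 1 to 4, 12.5, 17.8, 4.35 and 186 at 6h and 660.1, 462, 311 and 234 at Day7. Day1 was tight at 9.57 ± 1.63 (SD, n = 4), 3 of 4 6h libraries were close to it, and 6h replicate 4 and all of Day7 were far above (log2 difference -3.15, SE 0.76, limma adjusted p = 0.0697). The summed level of the list was 2351 to 13147 at Day1, 479.9 to 60589 at 6h and 41559 to 81102 at Day7. Tbxas1 (thromboxane synthase) and F2rl2 (a thrombin receptor) differed by -2.96 and -2.84. Scaled to all reads the list median was -0.02, against 1.69 for all genes.

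Erythroid genes were lower against both times, with 10 of 26 nominally lower, 0 higher and a median of -2.18 (-1.32 against 6h, -2.74 against Day7; -0.88 on the scale of reads outside haemoglobin and -0.48 on that of all reads). Spna1, alpha spectrin, was 44.6, 2.1, 12.6 and 0 at Day1, 16.6, 240.1, 118 and 13.3 at 6h and 10.7, 57, 1052 and 264 at Day7, so Day1 replicate 1 lay within the others (log2 difference -3.56, SE 1.07, limma adjusted p = 0.0936). Fech and Alas2, enzymes that end and begin haem synthesis, differed by -3.13 and -2.94. Outside the list, Bnip3l, a mitophagy receptor needed for red cell maturation, differed by -2.47, limma adjusted p = 0.137, and Gadd45a, a stress gene, was 56, 14.5, 19.2 and 0.778 at Day1, 35.8, 107, 29.2 and 98.7 at 6h and 77.5, 141, 1317 and 204 at Day7 (log2 difference -3.14, SE 0.85, limma adjusted p = 0.087). Proliferation genes had 4 of 24 nominally lower, among them Ccnb2 (-3.12), and 1 higher, the replication helicase subunit Mcm5 (2.03, limma adjusted p = 0.11). Their median of -0.65 was 0.50 when scaled to all reads.

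White cell lists had few nominal differences. Mature neutrophil genes had 4 of 13 nominally lower (median -1.19, 0.02 against 6h and -2.02 against Day7), led by the MYC antagonist Mxd1 at 15.4, 8.38, 35 and 11.5 at Day1, 61.2, 71.2, 33.8 and 54.8 at 6h and 79.5, 158, 250.4 and 125 at Day7 (log2 difference -2.44, SE 0.64, limma adjusted p = 0.0782). Monocyte and macrophage genes had 4 of 20 nominally higher, including the chemokine receptor Ccr2 (1.79) and the CSF1 receptor Csf1r (1.95, limma adjusted p = 0.199). Their list median was 0.35 (0.65 against 6h and 0.67 against Day7), beside 0.48 (0.52 and 0.48) for all genes. Siglech, a marker of plasmacytoid dendritic cells, was 185, 12, 34.9 and 51.7 at Day1, 122, 0.379, 7.97 and 0.779 at 6h and 0.344, 0.191, 0 and 8.65 at Day7 (log2 difference 3.61, SE 1.01, limma adjusted p = 0.087), with 6h replicate 1 at the level of Day1. B cell genes had 0 of 14 nominal differences and T cell genes 1 in each direction of 19.

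Interferon-stimulated genes went both ways, 5 of 22 nominally higher and 3 lower. Ifit1 lay below all others at Day1, with 15.2, 15.9, 24.7 and 5.33 against 43.9, 85.6, 39.6 and 27.2 at 6h and 41.3, 158, 107 and 62.5 at Day7 (log2 difference -2.08, SE 0.65, limma adjusted p = 0.099). Oas3 and Isg15 were lower (-2.64 and -2.14), while Gbp2, Stat2 and Irf1, which interferon gamma also induces, were higher (2.10, 1.73 and 1.84), as were Mx1 and Ifi44 (1.25 and 1.96). Isg15 was highest in Day7 replicates 3 and 4 (40.2, 481, 3656 and 1035 over the 4 Day7 libraries), the libraries with the highest mean erythroid level (11.3 and 9.99 on the log2 scale, against 5.85 and 8.34 in replicates 1 and 2), and the part of that level was not tested. Ifit1 did not follow that order at Day7.

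Single genes of other lists stood out. Lgals7, a galectin of stratified epithelia, was 18.9, 281, 65.2 and 66.6 at Day1, 42.6, 0, 39.1 and 25.5 at 6h and 1.03, 0, 0 and 0 at Day7 (log2 difference 4.08, SE 0.90, limma adjusted p = 0.0697), and 4 of 11 keratinocyte genes were nominally higher. Cyp11a1, the enzyme that starts steroid hormone synthesis, was 1.61, 0, 0 and 0 at Day1, 0.747, 1176, 79.4 and 133 at 6h and 0.757, 2.3, 0 and 19.3 at Day7, so its difference (log2 difference -3.56, SE 1.14, limma adjusted p = 0.102) rested on 3 libraries of the 6h group. Glucocorticoid-responsive genes and metallothioneins had 8 of 16 nominally higher, including Per1, the receptor gene Nr3c1 (2.22, limma adjusted p = 0.13) and the metallothioneins Mt1 and Mt2 (1.51 and 1.92), and 1 lower, Glul (-2.06, limma adjusted p = 0.149). The median of this list was 0.41 against 6h and 2.08 against Day7, beside 0.52 and 0.48 for all tested genes, so it exceeded them only against Day7. Lpl, lipoprotein lipase, was lower (-2.17, limma adjusted p = 0.126), as 1 of 6 adipocyte genes.

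The remaining lists gave few nominal differences. Cytokine and NF-kB feedback genes had 4 of 14 higher, with the inhibitor Nfkbiz at 2.71, and chemokine ligands 2 of 16, Ccl2 (1.82) and Cxcl16 (2.08). Endothelial markers had 2 of 10 higher, among them the VEGF receptor gene Kdr (2.11, limma adjusted p = 0.148), and the smooth muscle list 1 of 8, the intermediate filament gene Des (2.62, limma adjusted p = 0.115). Most members of both lists were below 0, however, 7 of 10 endothelial (median -0.29) and 6 of 8 smooth muscle genes (median -0.60). MHC class II and dendritic cell genes had 3 of 15 higher and NK cell genes 1 of 8 (1.75 for Klrd1). Genes of p53 and oxidative stress had 3 of 15 higher, including the cell cycle inhibitor Cdkn1a (2.14), and 2 lower. Hypoxia and glycolytic genes had 1 of 23 higher, the collagen hydroxylase subunit P4ha1 (1.80), and 2 lower. ER stress genes had 1 of 18 higher, Sdf2l1 (2.00), and cytosolic ribosomal protein genes 1 of 25 in each direction, Rpl27a (1.55) and Rplp0 (-1.60). The eosinophil, basophil and mast cell list had 0 of 5 in either direction.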

How the data were processed

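Total RNA of iChip-enriched blood was sequenced in 12 libraries. In the deposited table each gene has a signal that the authors named CPM, but columns sum to between 351981 and 5611145, with every Day1 column below all others. STAR 2.7.10, HTSeq 2.0.1 and mm9 are named per the submitters' processing notes, while annotation and scaling were not given in the sources used here. Dividing by the value of 1 read gave whole reads for 100% of values (within 0.001 reads), 5098395 to 12379041 per library. Of 37583 IDs, 32860 matched the reference at hand, which is another build and served for names and RefSeq promoters only.

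Genes reaching a value of 1 in 4 or more libraries (11211) were tested with limma 3.58.1 in R 4.3.3 on log2(value + 1), trended variance, all 3 time groups, contrast Day1 minus the mean of 6h and Day7. Differences on this scale understate changes of low genes. The peak or dip test took the larger one-sided p of the 2 single contrasts. Library measures used exact permutation tests (495 arrangements). Floors cover counting error only, since the reads carry no molecular identifiers here. Members and gene lists were chosen with earlier results of these data known. Named genes were up to 10 per direction without overlap and with a mean of at least 10, by smallest p where too few were called, then the list member with the smallest p, 2 abundant members of 6 lists, and 6 fixed genes. Values of other list members and non-overlapping genes were added after they were seen. Alternatives were pseudocounts of 0.25 and 4, other filters and scales, array weights, 2 groups, a replicate block, a Y-linked term, libraries left out, and edgeR 4.0.16 and DESeq2 1.42.0 on the recovered reads. A few genes are not reported here. Fits were tested on simulated data.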

Additional observations from a re-analysis of the deposited data

Results flagged for a closer look

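Within each time, 222 groups of 4 libraries were checked for a library far from the other 3 (Dixon's ratio above its 95% critical value), for the library measures and the named genes. Chance alone would mark about 1 in 20 groups if values had no ties, and 22 were marked here. Where the other 3 libraries hold no reads, however, any read is marked, as for Cd6 in 6h replicate 4 (0.1199). The rate does not hold for such groups, so the 22 cannot be read as an excess over chance. Of the 22, 5 were in Day7 replicate 1 and 4 in Day1 replicate 1. The read total of 6h replicate 4 (12379041) was above the other 6h libraries.

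At Day1, F2 was high in replicate 4 (330), Cpa3 in replicate 1 (12.36, others 0) and Cyp11a1 in replicate 1 (1.607, others 0), while Dbp (18.54) and Des (5.314) were low in replicate 1. At 6h, Arl10 in replicate 2 (2.272), Fgg in replicate 4 (0.5395), Cd6 in replicate 4 (0.1199) and Tcf21 in replicate 3 (2.655) stood above 0 in the other 3, and Egr1 in replicate 1 (5.228) and Lgals7 in replicate 2 (0) stood below the others. At Day7, 1110020G09Rik in replicate 3 (404.6), Tgfbr2 in replicate 1 (4.678) and Siglech in replicate 4 (8.647) were high. Arl10 (0.6879), Oxnad1 (0.1376), Lgals7 (1.032) and Cd6 (1.169) in replicate 1 and Slit3 in replicate 4 (0.3326) were the single values above 0, and Atp1b1 and Dbp in replicate 3 were at 0.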

How the results depend on the processing

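Settings that kept 0 calls in both directions were the other pseudocounts, a minimum mean of 10, scaling by TMM or by median of ratios, 2 groups, the replicate block, the Y-linked term and edgeR. Higher and lower calls were 13 and 0 with no filter, 3699 and 8 scaled to reads outside haemoglobin, 4496 and 3 scaled to all reads, 661 and 196 with array weights, 340 and 220 in DESeq2 and 2 and 3 without the 2 libraries with the fewest genes. They were 498 and 46 without both 6h libraries with Y-linked reads, an alternative chosen after seeing the data. Leaving out 1 library gave 0 to 254 higher and 0 to 109 lower calls. Peaks against each time were 1 with no filter, 160 scaled to reads outside haemoglobin and 1254 scaled to all reads, dips were 0 in every setting run, and neither was run in edgeR or DESeq2. Genes above all others numbered 258 with no filter, 26 with a minimum mean of 10, 1124 and 1267 on these scales, 280 without the 2 libraries with the fewest genes, 713 without both 6h libraries and 184 to 407 with 1 library left out. Genes below numbered 57, 49, 2, 4, 117, 132 and 57 to 113 in the same order. Same-numbered libraries did not deviate together (r -0.23 to 0.12 over 12 pairs, 1 above 0.1). Such low correlations cannot exclude that the numbers pair the samples, and the labels do not say. The replicate block gave 0 calls, with 1771 higher and 508 lower at an unadjusted p under 0.05. Of the values of named genes under alternatives, 1632 kept direction and side of the threshold, 303 passed it and 22 changed sign. Spp1 (-0.06) was 0.049 with a pseudocount of 0.25, 0.77 and 1.01 on the 2 read scales, 1.19 in edgeR, 1.48 in DESeq2, 0.076 without both 6h libraries and -1.96 to 1.17 with 1 library left out (0.84, 0.17, 0.20, 0.37 and 0.43 among those that reversed). Sox6 (-0.19) was 1.08 and 1.44 on the read scales, 0.17 without both 6h libraries and -0.80 to 0.47 with 1 library left out (0.14, 0.22 and 0.08 among those that reversed). Scaled to all reads, Thbs1 was 0.13 and Gsn 0.15, and Atf4 (0.48) was -0.24 with the Y-linked term. The cause of these changes was not tested. Depth limits low genes, since 1 read is worth up to 0.617.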
